A study of Mus musculus with 23 samples.

Results

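The genes described here are the 58 detected genes of mouse chromosome 16 that lie 20 to 40 Mb from Ehhadh on its distal side, in the livers of wild-type mice and of mice without a working Ehhadh gene. A gene was taken as a member when the lowest start of its exons fell between positions 41787834 and 61787834 of the mm10 build of chromosome 16, that is, 20 to 40 Mb beyond the end of Ehhadh (chr16:21761285-21787834), and when it had at least 10 reads in at least 5 of the 23 libraries. The stretch held 134 of the 741 chromosome 16 genes listed by the authors' counting, and 24062 genes were listed in all. Of those 134 genes, 75 were under the count minimum, 43 of them with no read in any library, and 1 gene was left out by the rule. All 30 olfactory receptor genes listed in the stretch were under the minimum, and none became a member. The members were chosen by position and by measured values, because the difference between knockout (KO) and wild type, within each treatment and averaged over both, had been seen there, so those values are a description, and nothing is read from tests of them.

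The product of Ehhadh is the bifunctional enzyme that hydrates and then oxidises acyl-CoA intermediates when peroxisomes of hepatocytes shorten fatty acids. Genes that lie near each other on a chromosome are inherited together, so a targeted allele bred into another background keeps a stretch of the donor strain's DNA around it. Meiotic recombination shortens the stretch over generations of breeding, and animals of one colony can carry stretches of different length. Which strain the chromosome 16 DNA of each animal came from was not tested.

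RNA with poly(A) tails was sequenced from the liver of 23 mice of mixed B6/129 strain. The 4 groups were 7 wild-type mice given saline, aged 29 to 45 weeks, 5 Ehhadh KO mice given saline, aged 31 to 44 weeks, 6 wild-type mice given L-AC, aged 28 to 44 weeks, and 5 Ehhadh KO mice given L-AC, aged 28 to 38 weeks. L-AC is named only by that abbreviation in the labels used here, and its dose, the route, the sex of the animals and the part of Ehhadh that was removed were not given there. Each library came from 1 mouse, and replicate numbers only name libraries in the order of deposit. Between 24521896 and 48095959 reads were counted for genes per library. Levels are given as CPM, the reads of a gene scaled to a common library size. Ehhadh itself was at 635 to 1635 CPM in wild-type saline livers and at 90.9 to 253 CPM in KO saline livers, with no overlap. With L-AC it was at 10260 to 14650 CPM in wild type and at 1421 to 2144 CPM in KO, again with no overlap. Reads of Ehhadh were therefore counted in the KO livers of both treatments. Summed CPM of 6 hepatocyte markers, among them Alb and Ttr, ran from 58630 to 72070 in saline livers and from 32220 to 55770 in L-AC livers. The markers did not all move together. At an adjusted p under 0.05 by edgeR, L-AC raised 1 of the 6 and lowered 3 in wild type, and lowered 3 in KO. Among all genes tested, 26.6% were called higher and 26.7% lower in wild type, and 25.2% and 23.6% in KO. In bulk liver, fewer cells of a type and less RNA per cell cannot be told apart.

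Of the 58 members, 54 were protein coding in RefSeq, 2 were long noncoding RNAs (Gm19522 and 2310061J03Rik, now Zbtb11os1) and 1 was the microRNA gene Mir568. The remaining member, BC027231, was not matched to RefSeq. There were 49 matches by symbol and 8 by synonym, among them Mina (now Riox2), Pvrl3 (Nectin3), Gm608 (Usf3), Qtrtd1 (Qtrt2) and 2610015P09Rik (Ccdc191). By strand, 25 members lay on the plus and 33 on the minus strand. The nearest member to Ehhadh was Gm19522 at 21.1 Mb, followed by Zbtb20 at 21.12 Mb, and the most distant were Crybg3 at 37.7 Mb and Arl6 at 37.83 Mb. Just outside the stretch lay Upk1b and Igsf11, at 16.99 and 17.11 Mb, and Nsun3 and Arl13b, at 40.95 and 41.01 Mb. Tigit and Tmprss7 only just passed the count minimum, with 5 libraries each at 10 reads or more, whereas Tagln3 and 5330426P16Rik missed it with 3 libraries each.

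In all, 3 stretches of upstream DNA are shown because they belong to Ift57 and Plcxd2, the members of at least 1 CPM with the largest positive genotype differences, and to Abhd10, one of the negative ones, and 2 more because each lies between the starts of a pair of members transcribed away from each other. The sequences come from the RefSeq promoter table of GRCm38.p6, which has the coordinates of mm10, they end before the transcription start, and bases that the GENCODE M21 annotation places in an exon were left out. Capitals mark matches, on either strand, to CCAAT, to the GC box GGGCGG, to the E-box CACGTG, to the cAMP response element TGACGTCA or to the ETS core CCGGAA.
Ift57 (chr16:49699044-49699232, plus strand): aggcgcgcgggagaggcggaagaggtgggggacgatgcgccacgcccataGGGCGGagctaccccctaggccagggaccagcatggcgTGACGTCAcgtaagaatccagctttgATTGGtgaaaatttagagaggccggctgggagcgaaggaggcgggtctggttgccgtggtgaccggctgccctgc
Abhd10 (chr16:45742956-45743205, minus strand): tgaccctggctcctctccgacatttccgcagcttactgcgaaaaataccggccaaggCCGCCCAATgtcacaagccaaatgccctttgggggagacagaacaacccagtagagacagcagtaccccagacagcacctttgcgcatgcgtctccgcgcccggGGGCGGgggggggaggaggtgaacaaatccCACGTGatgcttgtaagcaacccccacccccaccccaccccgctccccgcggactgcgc
Plcxd2 (chr16:46010414-46010663, minus strand): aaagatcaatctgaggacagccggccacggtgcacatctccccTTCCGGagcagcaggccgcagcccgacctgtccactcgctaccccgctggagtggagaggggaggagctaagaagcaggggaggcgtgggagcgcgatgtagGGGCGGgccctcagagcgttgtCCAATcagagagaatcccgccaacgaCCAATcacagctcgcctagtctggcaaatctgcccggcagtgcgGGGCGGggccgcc
Slc35a5 and Atg3 (chr16:45158707-45158784, plus strand): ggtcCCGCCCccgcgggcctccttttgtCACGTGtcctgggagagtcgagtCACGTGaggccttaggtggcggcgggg
Qtrtd1 and 2610015P09Rik (chr16:43889686-43889799, minus strand): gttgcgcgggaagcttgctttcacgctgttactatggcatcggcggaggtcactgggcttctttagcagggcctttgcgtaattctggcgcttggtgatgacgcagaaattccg
The Ift57 stretch held 1 match each to CCAAT, the GC box and the cAMP response element, and the Abhd10 stretch held an E-box. Over the 250 bases before the start, the GC box was found for 30 of the 48 members with a promoter entry (62.5%), against 32.7% of all 32851 promoters in the table. The ETS core was found for 13 members (27.1%) against 12% of all promoters, the E-box for 7 (14.6%) against 6.02%, CCAAT for 19 (39.6%) against 33.8% and the cAMP response element for 2 (4.17%) against 1.55%. TATAAA was found for 3 members (6.25%) against 12.4%. A member was counted when any of its promoter entries matched, whereas the share of all promoters is over single entries. Members also had to be detected in liver, and the promoters of the table did not. These shares are therefore unlike measures, and nothing is read from the gaps between them. Matches overlap in places, as where a GC box runs into CCAAT in the Abhd10 stretch, and a match is a description of letters, not of a bound site.

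The members were mostly genes of low to middle level in liver. Over all libraries 3 members averaged at least 100 CPM, 24 were at 10 to 100, 20 at 1 to 10 and 11 under 1 CPM, and the median member was at 7.11 CPM against 13.9 CPM for all genes tested. Per 1000 bases of exon, Rpl24, a protein of the large ribosomal subunit, had the highest level at 208.6 CPM. It was followed by Nit2, an omega-amidase that breaks down alpha-ketoglutaramate, at 64.3 CPM, and Tomm70a, the receptor of the outer mitochondrial membrane for imported proteins, at 38.8 CPM. Of the 58 members, 57 passed the filter on low counts and entered the fit. Tigit, an inhibitory receptor of T and NK cells, did not, and its levels ran from 0 to 0.101 CPM in wild-type saline libraries and 0 to 0.0358 CPM in KO saline libraries and, with L-AC, from 0.0404 to 0.969 CPM in wild-type and from 0.0341 to 0.587 CPM in KO libraries.

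Reads of some members cannot be told apart. Each read was counted for every gene whose exons it overlapped and without regard to strand, so reads in the 801 bases that exons of Mina and Crybg3 share were counted for both, and likewise in the 568 bases shared by Zbtb11 and 2310061J03Rik. Mir568 lies within an exon of Zbtb20 in the GENCODE M21 annotation but outside the Zbtb20 exons used for counting, so its reads need not be of a microRNA precursor. Gm19522 overlaps a Zbtb20 exon on the other strand in that annotation.

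Between genotypes, no member was called at an adjusted p under 0.05 by edgeR's quasi-likelihood test, averaged over treatments or within either one, where 0.0282% of the 14196 genes tested were called in the average, 0.0141% under saline and 0.0141% under L-AC. At an unadjusted p under 0.05 there were 19 of 57 members in the average, where all genes gave 3.79%, 14 under saline against 1.86%, and 8 under L-AC against 4.53%. DESeq2 called 3 members in the average, Ift57, Abhd10 and Crybg3, with 0.155% of all genes called, and 1 under saline, Abhd10, with 0.0493%, and none under L-AC, with 0.106%. limma-voom called Ift57 in the average, with 0.0423% of all genes called, and no member within either treatment. These counts come from the contrasts that chose the stretch, and nothing is read from them. In the average, the median size of the log2 fold change of KO against wild type was 0.13 over the members tested and 0.06 over all genes tested. In the other stretches of the chromosome it was 0.06 for 157 genes proximal to Ehhadh, 0.07 for 48 genes 0 to 10 Mb distal, 0.07 for 78 genes 10 to 20 Mb distal and 0.06 for 100 genes beyond 40 Mb. A size over 0.25 was found for 19 of 57 members (33.3%) and for 10.5% of all genes. Signs were mixed, with 35 members higher in KO at any size (61.4%, beside 50.8% of all genes).

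**Figure D1:**
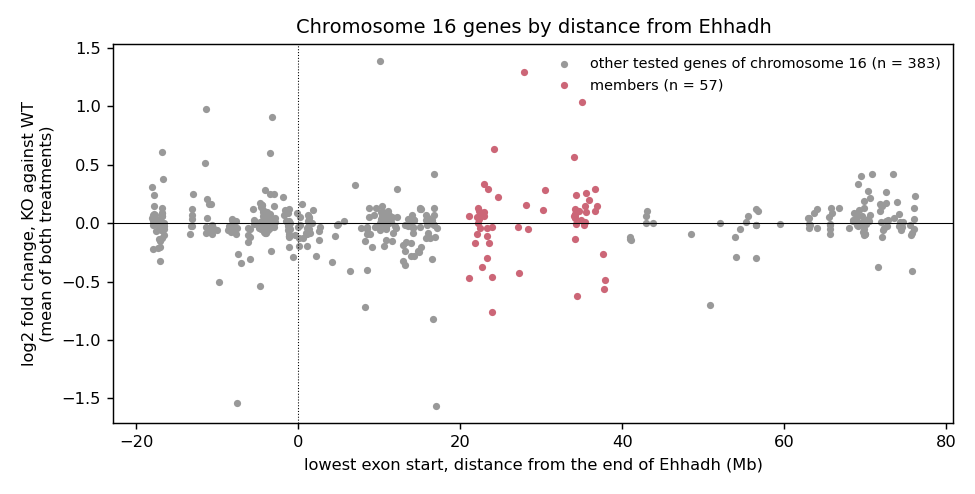
Log2 fold change of KO against wild type, averaged over both treatments, for each tested gene of chromosome 16 except Ehhadh, against the distance of its lowest exon start from the end of Ehhadh in Mb. The 57 members tested (red) lie between 21.1 and 37.83 Mb, and their differences run both above and below 0, from -0.76 for Tmprss7 to 1.29 for Ift57.

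Ift57, a subunit of the intraflagellar transport complex B that carries cargo along cilia (chr16:49699294-49765126, plus strand), had the largest positive difference. In KO saline livers it was at 3.47, 4.03, 3.32, 3.73 and 3.91 CPM, and in wild-type saline livers it ran from 0.434 through a median of 1.99 to 3.00 CPM. Every KO saline library was above every wild-type saline library. With L-AC the KO livers were at 3.96, 3.02, 5.94, 3.75 and 4.72 CPM, and the wild-type livers were at 0.426 to 3.76 CPM with a median of 1.03. Here the groups overlapped through 1 library, replicate 4 of wild-type L-AC (3.76 CPM), since the rest of that group was at 1.46 CPM or lower. The log2 fold change was 1.0 ± 0.38 (SE) under saline, 1.59 ± 0.40 under L-AC and 1.29 ± 0.28 in the average. Without wild-type L-AC replicate 4 the average was 1.58, and without wild-type L-AC replicate 6 it was 1.20. The counts behind these levels were small, at 15 to 182 reads per library.

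Plcxd2, a member of the phospholipase C family with only the catalytic X domain (chr16:45959261-46010413, minus strand), was second among members of at least 1 CPM. It was at 191.6, 102.1, 139.6, 106.8 and 178.8 CPM in KO saline livers, and at 67.4 to 154.4 CPM with a median of 92.1 in wild-type saline livers. With L-AC it was at 39.3, 22.5, 34.9, 47.8 and 24.5 CPM in KO, and at 8.52 to 46.9 CPM with a median of 18.4 in wild type. The genotypes overlapped under both treatments, under L-AC through wild-type replicate 4 at 46.9 CPM, the next wild-type library being at 21.1 CPM. The log2 fold change of KO against wild type was 0.55 ± 0.32 under saline and 0.73 ± 0.33 under L-AC. In the average it was 0.64 ± 0.23, or 0.86 without wild-type L-AC replicate 4 and 0.56 without wild-type L-AC replicate 1.

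**Figure D2:**
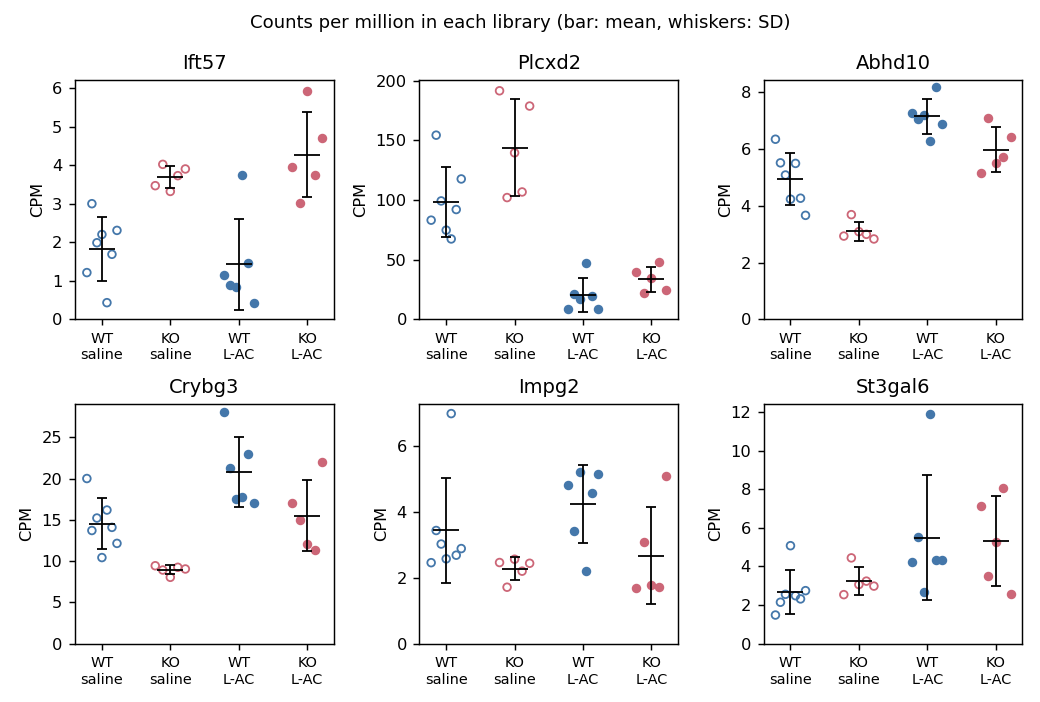
CPM of 6 members in each library (points), with the group mean and SD (bar and whiskers). For Ift57 the KO libraries (red) lie at 3.02 CPM or higher under both treatments, with wild-type L-AC replicate 4 at 3.76 CPM among them, and for Crybg3 the KO saline libraries lie at 8.05 to 9.45 CPM, under all wild-type saline libraries.

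The largest negative differences among members of at least 1 CPM were those of Impg2, Crybg3, Arl6, Gm19522 and Abhd10. Crybg3, a protein with beta/gamma-crystallin domains (chr16:59490775-59555752, minus strand), was at 9.45, 8.93, 8.05, 9.26 and 9.06 CPM in KO saline livers and at 10.4 to 20.02 CPM with a median of 14.1 in wild-type saline livers. All KO saline libraries were under all wild-type saline libraries. With L-AC it was at 17.1, 14.96, 12.1, 11.4 and 22.1 CPM in KO and at 17.0 to 28.0 CPM with a median of 19.6 in wild type, and KO replicates 1 and 5 reached into the wild-type range. The log2 fold change was -0.70 ± 0.17 under saline and -0.42 ± 0.17 under L-AC. Its neighbour Mina, a ribosomal oxygenase whose exons overlap those of Crybg3, was at 10.6, 12.0, 11.3, 11.1 and 11.7 CPM in KO saline and at 12.6 to 21.7 CPM with a median of 14.04 in wild-type saline livers, with no overlap and a log2 fold change of -0.42 ± 0.10. With L-AC both genotypes of Mina lay close together, at 20.3 to 23.7 CPM in KO and 22.5 to 24.8 CPM in wild type.

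Abhd10, a mitochondrial thioesterase that removes fatty acyl groups from proteins (chr16:45729725-45742955, minus strand), was at 2.94, 3.69, 3.09, 3.00 and 2.83 CPM in KO saline livers and at 3.67 to 6.35 CPM with a median of 5.09 in wild-type saline livers. Only KO replicate 2, at 3.69 CPM, came above the lowest wild-type library, replicate 7 at 3.67 CPM. With L-AC it was at 5.15, 7.10, 5.52, 5.72 and 6.42 CPM in KO and at 6.29 to 8.17 CPM with a median of 7.13 in wild type, and 2 KO libraries lay in the wild-type range. KO differed from wild type by -0.67 ± 0.13 under saline, -0.26 ± 0.13 under L-AC and -0.46 ± 0.09 in the average. Arl6, a small GTPase that recruits the Bardet-Biedl protein complex to cilia, differed by -0.49 ± 0.18 in the average, with 0.899 to 1.78 CPM in KO saline and 1.04 to 3.24 CPM in wild-type saline livers, which overlapped.

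Impg2, a proteoglycan known from the matrix around photoreceptors, had an average log2 fold change of -0.62 ± 0.21, the lowest of the members of at least 1 CPM. It was at 2.47, 1.72, 2.57, 2.21 and 2.45 CPM in KO saline livers and at 2.47 to 6.999 CPM with a median of 2.89 in wild-type saline livers, and the highest value belonged to wild-type replicate 5. With L-AC it was at 1.71, 3.10, 1.80, 1.72 and 5.09 CPM in KO and at 2.23 to 5.21 CPM with a median of 4.71 in wild type. KO replicate 5 lay at the upper end of the wild-type range, and without it the average was -0.81. Without wild-type saline replicate 5, the library at 6.999 CPM, the average was -0.49. Gm19522 was at -0.07 ± 0.24 under saline and -0.87 ± 0.26 under L-AC. Neither value was called, and the difference between treatments did not pass the interaction test. Its levels with L-AC were 1.19, 1.13, 0.932, 1.72 and 1.36 CPM in KO and 1.43 to 3.90 CPM in wild type, which overlapped.

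The remaining members at either end are given more briefly. Alcam, a cell adhesion molecule of the immunoglobulin family, was at 48.9 to 64.3 CPM in KO saline and 34.0 to 51.3 CPM in wild-type saline livers, with an average log2 fold change of 0.28 ± 0.13. Pvrl3, the adhesion receptor nectin-3, was at 49.3 to 57.3 CPM in KO saline and 34.0 to 49.1 CPM in wild-type saline livers without overlap, with an average of 0.22 ± 0.08. Filip1l, a filamin-binding protein, was at 3.38 to 4.23 CPM in KO saline and 1.63 to 3.30 CPM in wild-type saline livers, again without overlap, and its log2 fold change was 0.55 ± 0.21 under saline and -0.02 ± 0.22 under L-AC. Trmt10c, a subunit of mitochondrial RNase P, was at 0.36 ± 0.09 under L-AC and 0.13 ± 0.09 under saline, and this difference between treatments did not pass the interaction test. Dcbld2 (0.29 ± 0.12) and Cd47 (0.15 ± 0.07), the ligand of SIRP-alpha on macrophages, completed the upper end, and Slc35a5 (-0.30 ± 0.09) and Mir568 (-0.17 ± 0.13) the lower.

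**Figure D3:**
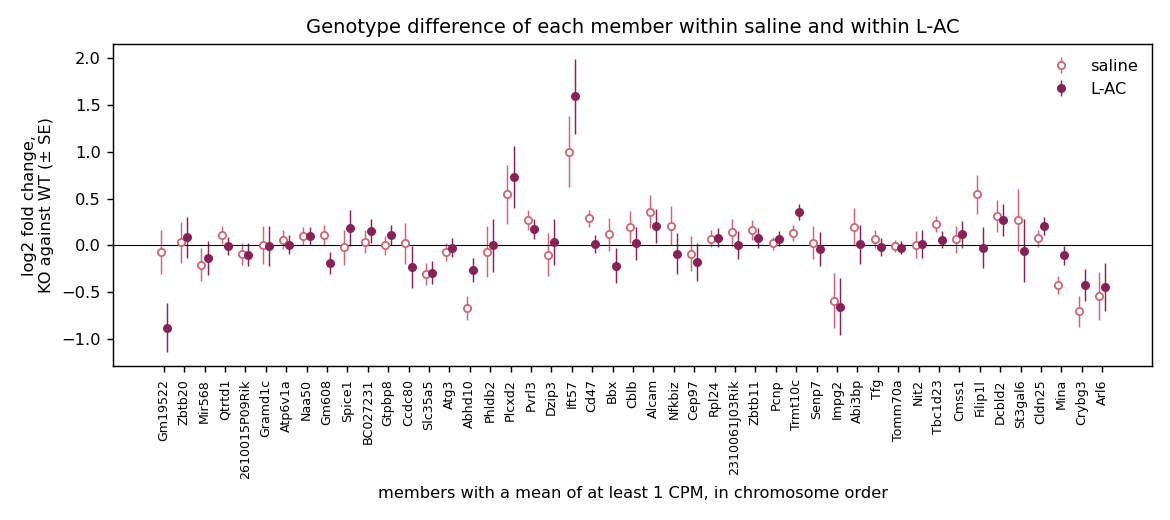
Log2 fold change of KO against wild type with its SE for each member with a mean of at least 1 CPM, in chromosome order, under saline (open) and under L-AC (filled). Ift57 has the highest values, 1.0 under saline and 1.59 under L-AC. Gm19522 at the left edge is at -0.87 under L-AC and -0.07 under saline, a difference that did not pass the interaction test.

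Groups that did not overlap between genotypes were found for 6 of 57 members under saline, beside 0.141% of all genes tested, for none under L-AC, beside 0.451%, and so for none under both, beside 0.0211%. The 6 were Pvrl3, Ift57, Tbc1d23 and Filip1l, higher in KO (0.0634% of all genes), and Mina and Crybg3, lower in KO (0.0775%). Mina and Crybg3 are neighbours that share exon bases. Beyond Ift57 come Cd47 and then Bbx, an HMG-box transcription factor whose average log2 fold change was -0.05 ± 0.13. Zbtb20, a transcription factor known in liver as a repressor of alpha-fetoprotein, differed by 0.06 ± 0.16, Rpl24 by 0.08 ± 0.07, Tomm70a by -0.01 ± 0.05 and Nit2 by 0.01 ± 0.10 in the average.

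In some libraries several members lay at an end of their group's range. Wild-type L-AC replicate 4, from a mouse of 28 weeks, was the highest of its group in Ift57 (3.76 CPM), Plcxd2 (46.9 CPM), St3gal6 (11.9 CPM, the others at 2.67 to 5.51) and Nxpe3 (0.946 CPM, the others at 0.426 to 0.608), and the lowest in Impg2 (2.23 CPM). Wild-type saline replicate 5, from a mouse of 29 weeks, was the lowest of its group in Ift57 (0.434 CPM), Plcxd2 (67.4 CPM) and Alcam (34.0 CPM), and the highest in Impg2 (6.999 CPM). KO L-AC replicate 5, from a mouse of 29 weeks, had an Ift57 level of 4.72 CPM, within the KO range, and an Impg2 level of 5.09 CPM, a Crybg3 level of 22.1 CPM and an Alcam level of 10.2 CPM, which were the highest, the highest and the lowest of its group. These libraries and members were picked out after their values were seen, and other members went otherwise. Wild-type saline replicate 5 was also the highest of its group in Filip1l (3.30 CPM), a member higher in KO saline livers. Wild-type L-AC replicate 4 was at 2.62 CPM in Arl6, a member lower in KO, above its group median of 2.38 CPM. Wild-type saline replicate 2, also from a mouse of 29 weeks, was the highest of its group in Ift57 (3.00 CPM) and Plcxd2 (154.4 CPM). The part that age plays in the values of these libraries was not tested. With age as a covariate the average log2 fold change of KO against wild type was 1.23 for Ift57 and -0.67 for Impg2.

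**Figure D4:**
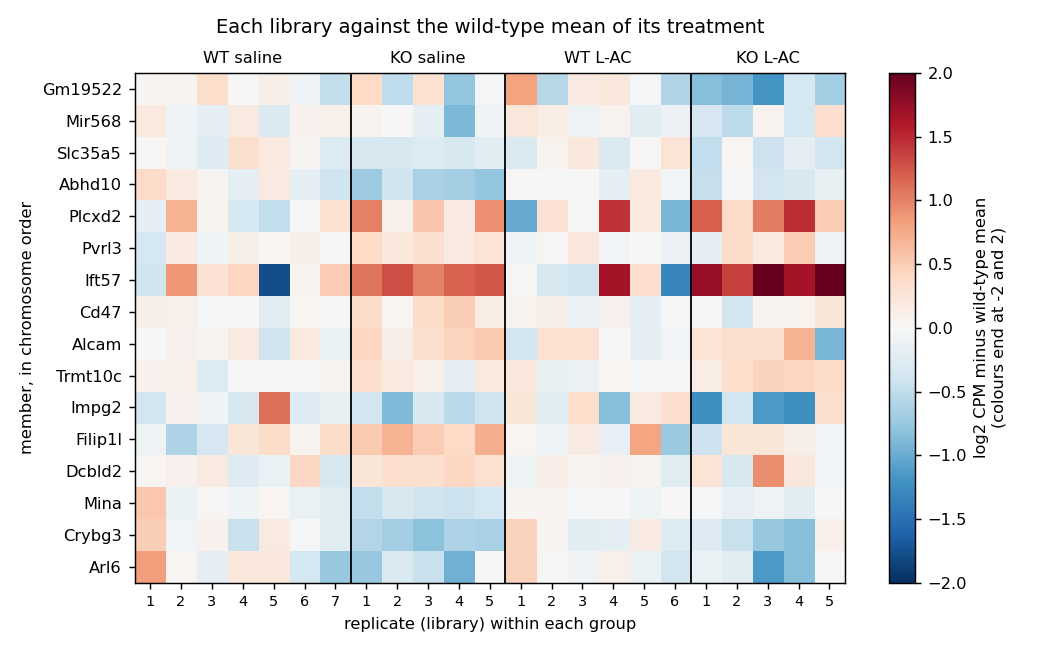
Log2 CPM (prior count 2) of 16 members in each of the 23 libraries, minus the mean of the wild-type libraries of the same treatment, with members in chromosome order and colours from -2 (blue) to 2 (red). Ift57 is above the wild-type mean in all KO libraries, and among wild-type libraries it is highest in L-AC replicate 4, and Impg2 is red in wild-type saline replicate 5.

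Spread among mice of one group was described as well. The median SD of log2 CPM within groups was 0.32 over the 57 members tested and 0.26 over all genes tested, and among genes of at least 1 CPM it was 0.26 over 47 members and 0.23 over 12064 genes. Ift57, with an SD of 0.73, varied more than 95.1% of all genes tested, and Plcxd2, with 0.59, more than 89.6%, whereas Tomm70a, with 0.10, varied more than only 2.32%. As a description over the 23 libraries, which share their counting and scaling, deviations from the group means were correlated at 0.75 for Zbtb20 and Mir568, 0.75 for Nxpe3 and St3gal6, 0.68 for Slc35a5 and Atg3, 0.62 for Zbtb11 and 2310061J03Rik, 0.60 for Mina and Crybg3 and -0.58 for Ift57 and Impg2. Larger sizes of r were found for members far apart. They were -0.83 for Naa50 and Senp7, 11.94 Mb apart, and 0.80 for Bbx and Crybg3, 9.3 Mb apart. Nothing is therefore read from the pairs named. By distance, the median size of r was 0.20 for 166 pairs of members within 0.5 Mb and 0.21 for 618 pairs beyond 10 Mb. A size of 0.5 was reached by 9.77% of 1596 member pairs against 8.9% of all pairs of chromosome 16 genes tested.

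The contrast of L-AC with saline was not part of the rule and was tested, but the count minimum spans both treatments. Of the members tested, 4 reached 10 reads in 5 libraries through 1 treatment only: Zdhhc23 (3 saline and 7 L-AC libraries), Tmprss7 (0 and 5), Col8a1 (3 and 6) and Tmem45a (10 and 3). A difference in the direction of that treatment is favoured by the choice for these 4, so their L-AC values are a description. In wild-type livers 29 of 57 members were called at an adjusted p under 0.05 by edgeR, a share of 50.9% where 53.3% of all genes tested were called. Of these, 15 were higher (26.3% against 26.6%) and 14 lower (24.6% against 26.7%). In KO livers 26 were called, a share of 45.6% against 48.8% of all genes, 11 higher (19.3% against 25.2%) and 15 lower (26.3% against 23.6%). In both genotypes 22 members were called in the same direction, 38.6% against 42.3% of all genes, 11 higher (19.3% against 21.7%) and 11 lower (19.3% against 20.6%), and no member was called in opposite directions. L-AC and saline libraries did not overlap for 12 members in wild type (21.1% against 24.1%) and for 21 in KO (36.8% against 32.6%). The shares called were near those of all genes tested. Leaving out the 4 members named above, 26 of 53 were called in wild type and 24 in KO. Of these 4, Tmprss7 and Tmem45a are among the 22 called in both genotypes. Among the members without overlap between treatments are Zdhhc23 in wild type and Tmprss7 and Tmem45a in KO. The comparison of the KO and wild-type responses called no member by edgeR, DESeq2 or limma-voom, and no gene at all (0%). At an unadjusted p under 0.05 it gave 5 members where all genes gave 2.25%, namely Gm19522, Cd200r1, Abhd10, Cd47 and Mina, each with an adjusted p of 1.0 by edgeR. That comparison is formed from the same genotype differences that chose the stretch.

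**Figure D5:**
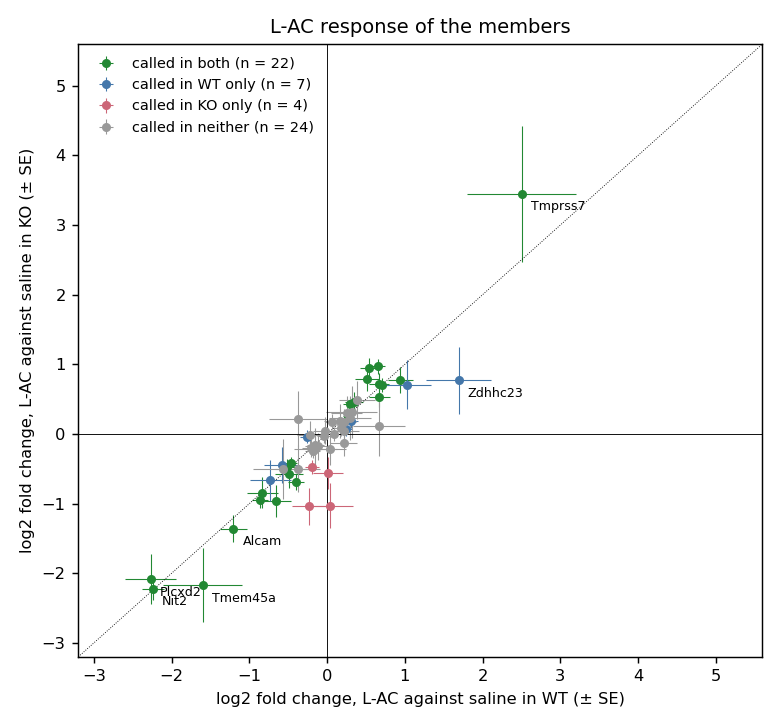
Log2 fold change of L-AC against saline in wild type (horizontal) and in KO (vertical), with SE, for the 57 members tested. The 22 members called in both genotypes include Nit2 at -2.24 and -2.23 and Plcxd2 at -2.27 and -2.09, at the lower left, and Tmprss7, which reached the count minimum through L-AC libraries only, lies at the upper right.

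Among the metabolic and mitochondrial members, Nit2 fell in both genotypes. It ran from 98.8 through a median of 138.6 to 158.5 CPM in wild-type saline livers and from 23.4 through 26.7 to 38.5 CPM with L-AC. In KO it was at 137.0, 138.5, 119.6, 132.3 and 137.5 CPM with saline and at 21.5, 35.3, 24.9, 36.0 and 24.4 CPM with L-AC. No L-AC library came near a saline library in either genotype. The log2 fold change was -2.24 ± 0.15 in wild type (adjusted p = 7.73e-11, edgeR) and -2.23 ± 0.16 in KO (adjusted p = 7.9e-10). Tomm70a rose by 0.27 ± 0.06 in wild type and 0.25 ± 0.07 in KO on the log2 scale, and Abhd10 rose by 0.53 ± 0.12 and 0.95 ± 0.14. Trmt10c fell in wild type by 0.26 ± 0.08 on the log2 scale (adjusted p = 0.0102) and was at -0.04 ± 0.09 in KO (adjusted p = 0.761). Of the 5 members in the mitochondrial list 2 rose and 2 fell in wild type, and 2 rose and 1 fell in KO, beside 26.6% higher and 26.7% lower of all genes in wild type and 25.2% and 23.6% in KO, and the median log2 fold changes were 0.06 and 0.18 beside -0.01 and -0.01 over all genes tested.

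Plcxd2 belonged to the list of vesicle, lysosome and autophagy genes, of whose 8 members 2 rose and 3 fell in wild type, beside 26.6% and 26.7% of all genes, and 1 rose and 3 fell in KO, beside 25.2% and 23.6%. The medians of the 8 were -0.20 and -0.22. Its fall was -2.27 ± 0.33 in wild type (adjusted p = 4.83e-06, edgeR) and -2.09 ± 0.36 in KO (adjusted p = 5.47e-05), with the values per library given above and no overlap between saline and L-AC in either genotype. Gramd1c, a carrier of sterols between plasma membrane and endoplasmic reticulum, ran from 19.4 through 31.1 to 54.9 CPM in wild-type saline and from 17.0 through 20.5 to 24.4 CPM in wild-type L-AC livers, which overlapped. KO livers had 39.3, 30.6, 29.0, 52.9 and 32.7 CPM with saline and 15.96, 27.7, 17.95, 19.8 and 21.6 CPM with L-AC, without overlap. Its log2 fold change was -0.83 ± 0.20 in wild type and -0.84 ± 0.22 in KO. Atg3, the enzyme that joins LC3 to phosphatidylethanolamine in autophagy, fell by 0.51 ± 0.09 and 0.47 ± 0.11 on the log2 scale. Cldn25, a claudin-domain protein now named Cldnd1, rose by 0.29 ± 0.09 and 0.42 ± 0.10. Atp6v1a, the catalytic subunit of the vacuolar proton pump, was at -0.18 ± 0.09 and -0.24 ± 0.11 and was not called in either genotype.

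Of 9 adhesion and matrix genes tested, Col8a1 among them, none was called higher, 3 fell in wild type (Alcam, Pvrl3 and Phldb2), beside 26.7% of all genes, and 2 in KO (Alcam and Pvrl3), beside 23.6%. The median log2 fold changes of the 9 were positive, at 0.22 and 0.04, beside -0.01 and -0.01 over all genes tested. Alcam ran from 34.0 through 46.8 to 51.3 CPM in wild-type saline and from 14.95 through 19.0 to 24.0 CPM in wild-type L-AC livers. In KO it was at 60.3, 48.9, 56.0, 61.4 and 64.3 CPM with saline and at 23.5, 24.1, 24.3, 31.3 and 10.2 CPM with L-AC, and neither genotype's treatments overlapped. Its log2 fold change was -1.20 ± 0.17 in wild type (adjusted p = 4.68e-06, edgeR) and -1.36 ± 0.19 in KO (adjusted p = 5.94e-06). Pvrl3 ran from 34.0 through 44.7 to 49.1 CPM in wild-type saline and from 22.4 through 23.7 to 28.0 CPM in wild-type L-AC livers. KO livers had 57.3, 50.5, 54.6, 49.3 and 52.9 CPM with saline and 21.0, 31.5, 27.6, 34.1 and 22.4 CPM with L-AC, again without overlap, and the log2 fold changes were -0.86 ± 0.10 and -0.95 ± 0.12. Summed CPM of 5 endothelial markers ran from 107.9 to 197.8 in wild-type saline, 143.8 to 177.5 in KO saline, and with L-AC from 125.9 to 154.5 in wild type and from 122.2 to 141.0 in KO, with 1 of 5 called lower by L-AC in wild type and 2 in KO. Those of 5 stellate cell and fibroblast markers ran from 102.0 to 172.2, 77.4 to 192.6, 167.5 to 208.8 and 144.6 to 191.4 in the same order, with 2 of 5 called higher in wild type and 1 in KO. Over all genes tested, L-AC values were called higher for 26.6% and lower for 26.7% in wild type, and for 25.2% and 23.6% in KO. The part of these cell types in the adhesion genes was not tested.

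Of 4 members of the list of translation and RNA modification 3 rose in wild type (Naa50, Cmss1 and Qtrtd1), beside 26.6% of all genes, and 2 in KO (Naa50 and Cmss1), beside 25.2%. The medians of the 4 were 0.49 and 0.45. Naa50, the catalytic subunit of an N-terminal acetyltransferase, ran from 94.9 through 101.6 to 109.1 CPM in wild-type saline and from 141.7 through 154.2 to 212.8 CPM in wild-type L-AC livers. In KO it was at 122.4, 103.1, 108.4, 107.7 and 103.5 CPM with saline and at 156.4, 169.7, 177.9, 165.7 and 219.2 CPM with L-AC. No saline library reached an L-AC library, and the log2 fold change was 0.70 ± 0.09 in wild type (adjusted p = 1.18e-06, edgeR) and 0.71 ± 0.10 in KO (adjusted p = 7.98e-06). Rpl24 stayed within -0.04 ± 0.09 and -0.03 ± 0.10 and was not called.

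The 4 members of the ubiquitin and SUMO list gave 1 rise and 2 falls in wild type and 1 rise and 1 fall in KO, beside the same shares of all genes, with medians of -0.29 and -0.29. Cblb, an E3 ubiquitin ligase that restrains receptor signalling, ran from 12.2 through 16.2 to 20.9 CPM in wild-type saline and from 25.5 through 32.0 to 41.9 CPM in wild-type L-AC livers. KO livers had 23.1, 16.6, 15.4, 19.9 and 20.5 CPM with saline and 37.9, 21.5, 27.3, 27.7 and 48.1 CPM with L-AC, and the lowest L-AC library was under the highest saline library. On the log2 scale the change was 0.94 ± 0.16 in wild type and 0.77 ± 0.19 in KO (adjusted p = 4.32e-05 and 0.00152, edgeR). Pcnp, a nuclear PEST-motif protein, fell by 0.46 ± 0.07 and 0.41 ± 0.08 on the log2 scale. Dzip3, an E3 ligase, fell in wild type by 0.59 ± 0.22 (adjusted p = 0.0295) and was at -0.45 ± 0.25 in KO (adjusted p = 0.151).

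Of 6 transcription and chromatin members 1 rose and 2 fell in each genotype, beside the same shares of all genes, with medians of 0.19 in wild type and -0.02 in KO. Mina rose by 0.66 ± 0.09 in wild type and 0.97 ± 0.11 in KO on the log2 scale. Nfkbiz, an inhibitor of NF-kappaB family that acts in the nucleus, fell by 0.66 ± 0.20 and 0.96 ± 0.23, and Gm608 (Usf3) fell by 0.40 ± 0.11 and 0.69 ± 0.12. In the list of cilium and centrosome genes Cep97 alone of 5 passed the test (medians of the 5 -0.21 and -0.01), falling by 0.49 ± 0.18 and 0.57 ± 0.21 in wild type and KO. The share called over all genes tested was 53.3% in wild type and 48.8% in KO. Ift57 was at -0.38 ± 0.38 in wild type and 0.21 ± 0.41 in KO, and Arl6 at 0.39 ± 0.23 and 0.48 ± 0.27, so neither was called.

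In the list of glycosylation and crystallin-like genes 2 of 3 rose in wild type and 1 in KO, beside 26.6% and 25.2% of all genes, with medians of 0.52 and 0.71. Crybg3 rose by 0.52 ± 0.15 in wild type and 0.79 ± 0.18 in KO on the log2 scale. St3gal6, a sialyltransferase, ran from 1.49 through 2.49 to 5.08 CPM in wild-type saline and from 2.67 through 4.35 to 11.9 CPM in wild-type L-AC livers. KO livers had 2.54, 4.45, 3.06, 3.24 and 2.98 CPM with saline and 7.13, 3.51, 5.25, 8.08 and 2.56 CPM with L-AC, and treatments overlapped in both genotypes. On the log2 scale the change was 1.03 ± 0.31 in wild type (adjusted p = 0.00773, edgeR) and 0.71 ± 0.36 in KO (adjusted p = 0.103). Whether St3gal6 was called turned on 1 library in each genotype. Without wild-type L-AC replicate 4 the wild-type value was 0.65 and was no longer called, and without KO L-AC replicate 5 the KO value was 0.89 and was called.

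Immune receptors and their ligands were sparse apart from Cd47. Of the 16 symbols in that list 15 were listed in the files and 5 were members, of which 4 were tested. None was called in wild type, and 2 were called lower in KO, beside 23.6% of all genes, with medians of the 4 of -0.29 and -0.50. In KO Cd47 fell by 0.47 ± 0.10 on the log2 scale (adjusted p = 0.000487, edgeR) and Cd200r1, an inhibitory receptor of myeloid cells, fell by 1.03 ± 0.33 (adjusted p = 0.0122), from 0.573, 0.839, 0.338, 0.327 and 0.580 CPM to 0.239, 0.151, 0.276, 0.286 and 0.309 CPM. Those Cd200r1 levels rest on 4 to 27 reads per library. Mean Cd200r1 was 0.279 CPM with saline and 0.297 CPM with L-AC in wild type, against 0.531 and 0.252 CPM in KO. Mean Cd47 was 38.65 and 33.76 CPM in wild type and 47.28 and 34.04 CPM in KO, in the same order. Both falls in KO start from KO saline levels above those of wild type. Those KO saline levels were part of the genotype differences that chose the stretch. Summed CPM of the 5 listed Kupffer cell and macrophage markers ran from 50.4 to 176.3 in wild-type saline, 63.2 to 139.2 in KO saline, and with L-AC from 30.2 to 70.8 in wild type and from 29.3 to 73.0 in KO, with 3 of 5 called lower by L-AC in wild type and 2 in KO. Those of 4 B cell markers ran from 1.45 to 3.76, 1.27 to 7.93, 0.609 to 1.62 and 0.463 to 4.03 in the same order, with 4 and 1 of 4 called lower. Those of 6 T and NK cell markers ran from 0.709 to 2.61, 1.17 to 2.35, 0.873 to 2.14 and 1.04 to 2.18, and Cd3d, Nkg7 and Gzma were at 0 in at least 1 library. Only 2 of these 6 markers were tested, and 1 was called higher by L-AC in each genotype. The shares of all genes called higher and lower were 26.6% and 26.7% in wild type, and 25.2% and 23.6% in KO. The part of these cells in the 2 falls was not tested.

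Of members in no list, 3 of those that reached the count minimum through 1 treatment are given by their values. Tmem45a, a membrane protein of unsettled function, had log2 fold changes with L-AC of -1.60 ± 0.51 in wild type and -2.17 ± 0.53 in KO. It was at 0.0578 to 0.831 CPM in wild-type saline and 0.0639 to 0.21 CPM in wild-type L-AC livers, which overlapped. KO livers had 1.54, 0.671, 0.753, 1.23 and 1.05 CPM with saline and 0.0341, 0.378, 0.414, 0.215 and 0.124 CPM with L-AC, without overlap. Zdhhc23, a protein palmitoyltransferase, was at 0 to 0.229 CPM in wild-type saline and 0.278 to 0.523 CPM in wild-type L-AC livers, with log2 fold changes of 1.69 ± 0.42 in wild type and 0.77 ± 0.48 in KO. Tmprss7, a membrane serine protease, had at most 6 reads in a saline library, with 4 saline libraries at 0, and 3 to 36 reads in an L-AC library. The RNA opposite Zbtb11, 2310061J03Rik, rose by 0.67 ± 0.14 and 0.54 ± 0.16, while Zbtb11, which shares exon bases with it, was at 0.17 ± 0.10 and 0.09 ± 0.11 and was not called.

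L-AC values of members that share a start region are given side by side. The starts of Slc35a5, a transporter of the nucleotide sugar family, and Atg3 lie 155 bases apart in the authors' annotation, with the E-boxes and GC box shown above between them. Atg3 fell in both genotypes, and Slc35a5 was at -0.21 ± 0.11 in wild type and -0.20 ± 0.13 in KO and was not called. Qtrtd1, a subunit of the enzyme that puts queuine into tRNA, and 2610015P09Rik start 225 bases apart. Qtrtd1 rose in wild type by 0.31 ± 0.09 (adjusted p = 0.0062, edgeR) and was at 0.19 ± 0.10 in KO (adjusted p = 0.126), and 2610015P09Rik was at -0.15 ± 0.11 and -0.16 ± 0.13. Dzip3 and C330027C09Rik (Cip2a), with 75 bases between their starts, were at -0.59 ± 0.22 and 0.17 ± 0.20 in wild type. The differences between the partners were not tested.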

How the data were processed

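Liver RNA of 23 mice was counted per gene, and the deposited files hold whole read counts, which the authors made with featureCounts 1.4.4 over UCSC mm10 exons, per the file headers, keeping primary alignments and counting a read for every gene it overlapped. STAR 2.4.0 and edgeR are named in the submitters' processing notes. Library totals ran from 24521896 to 48095959 reads, and precision depended also on the spread among the mice of a group. Here counts were scaled by TMM, genes were kept by filterByExpr (minimum count 10, minimum total 15), and edgeR 4.0.16 (R 4.3.3) fitted 1 mean per group to all 23 libraries with quasi-likelihood tests and Benjamini-Hochberg adjustment over 14196 genes. Replicates are separate mice by their labels, and over 56 replicate pairs the chi-square statistic was at least 44.1 per degree of freedom, so none was a repeat. DESeq2 1.42.0, limma 3.58.1, other filters, age as a covariate and leaving out each library were alternatives. The fit was tested on simulated data. Levels per library were given for members of at least 1 CPM with the 8 highest and 8 lowest genotype differences and for the 6 largest rises and 6 largest falls called with L-AC in wild type; other members by range or by list. Members and lists were chosen with earlier results of these data known.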

Additional observations from a re-analysis of the deposited data

Results flagged for a closer look

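In 100 groups of 5 to 7 libraries checked for the 25 members described per library, 9 held 1 library far from the others, where chance alone gives about 1 group in 20. The members were picked for large differences and the same libraries recur, so nothing is read from the 9 beside that rate. Wild-type L-AC replicate 4 was highest in Plcxd2 (46.9 CPM, the others at 8.52 to 21.1), Ift57 (3.76 CPM, the others at 0.426 to 1.46) and St3gal6 (11.9 CPM, the others at 2.67 to 5.51). Among wild-type saline libraries, replicate 5 was highest in Impg2 (6.999 CPM, the others at 2.47 to 3.44), replicate 4 in St3gal6 (5.08 CPM, the others at 1.49 to 2.75) and replicate 1 in Mina (21.7 CPM, the others at 12.6 to 15.4), and replicate 3 was lowest in Trmt10c (16.2 CPM, the others at 19.4 to 21.0). KO saline replicate 1 was highest in Naa50 (122.4 CPM, the others at 103.1 to 108.4), and KO L-AC replicate 5 in 2310061J03Rik (24.7 CPM, the others at 15.2 to 17.1).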

How the results depend on the processing

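Counts of members called between genotypes were 0 as reported. In the average over treatments they were 3 by DESeq2, 1 by limma-voom (Ift57) and 1 with age as a covariate (Abhd10), and 0 to 1 when each library was left out in turn. That 1 was Abhd10 without wild-type saline replicate 7 or without KO L-AC replicate 2, Ift57 without wild-type L-AC replicate 4, and Crybg3 without KO L-AC replicate 5. Under saline DESeq2 called 1 (Abhd10), and leaving out libraries gave 0 to 1, the 1 being Abhd10 without wild-type saline replicate 7. Under L-AC leaving out libraries gave 0 to 1, the 1 being Ift57 without wild-type L-AC replicate 4. The cause of these changes was not tested. The members called with L-AC numbered 25 to 31 in wild type and 24 to 27 in KO when each library was left out, and the interaction kept 0. Of 690 recomputed L-AC values of single members, 3 changed side of the threshold, namely the St3gal6 values above and Tmem45a in wild type, at -1.22 by limma-voom and no longer called. None of these L-AC values and none of 464 recomputed genotype values of single members reversed. The single members were those picked for the highest and lowest genotype differences and for the largest L-AC changes called in wild type. That choice favours a stable sign, so nothing is read from the absence of reversals. No paired or blocked analysis was run, because the labels name no litter, batch or pair. Mouse numbers and ages lie close together across some groups, and relatedness among the mice was not tested. The 11 members under 1 CPM rest on few reads, which limits what could be detected.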
